A study of Mus musculus with 8 samples.

Results

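Translation initiation factors were compared between both major monocyte subsets of mouse blood. The members were the probe sets whose single platform gene symbol begins with Eif and a number, without the Eif2ak kinases and Eif2s3y. This gave 118 of 45037 probe sets, for 42 of 18193 named genes. The samples were monocytes of 12-week-old C57Bl/6 mice, sorted as Gr1hi (Ly-6chi) cells, here Ly6Chi, or Gr1lo (Ly-6clo) cells, here Ly6Clo. Each subset had 4 samples, each from a separate sort of leukocytes pooled from 5 mice, with 1 Affymetrix mouse whole-genome expression array per sample. No genotype, treatment or disease was labelled, so the subset was the only contrast. Pooling hides the spread between single mice, so errors below are between sorts. In sorted bulk RNA, fewer cells expressing a gene and less of its RNA per cell cannot be told apart.

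Initiation factors bring the small ribosomal subunit, the initiator tRNA and the messenger RNA together before protein synthesis starts. eIF2 carries the initiator tRNA and eIF2B recharges it with GTP, while eIF3 is the large scaffold on the small subunit. The eIF4 factors bind the cap and unwind the messenger RNA, and eIF5 and eIF5B complete start codon selection and subunit joining. Much of the control of protein output in blood cells acts here, through phosphorylation of eIF2 and through 4E-binding proteins that block the cap-binding protein.

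The eIF3 scaffold genes were higher in Ly6Chi RNA for 7 of 11 members and higher in Ly6Clo RNA for none. Probe sets annotated jointly to the Eif3j family lay outside these members and had the higher mean in Ly6Clo. The genes of the cap-binding protein Eif4e, the helicase Eif4a2, the scaffold Eif4g3, Eif5, Eif5a and Eif1ad were higher in Ly6Clo RNA. Those of the cap-binding relatives Eif4e3 and Eif4e2, the 4E-binding protein Eif4ebp2, Eif2b2 and Eif2a were higher in Ly6Chi RNA. For Eif3d, Eif4e2 and Eif4ebp2 the call depended on the probe set, and the mean of the gene's probe sets was not called. Eif2a differed most of all members. Every difference between representative probe sets was under 2-fold. Of 41 tested member genes, 18 were called by limma, meaning a p below 0.05 after Benjamini-Hochberg adjustment. Among them, 12 had the higher level in Ly6Chi and 6 in Ly6Clo. The count of 6 fell to 3 without Ly6Clo replicate 2 or without Ly6Clo replicate 3. Over all 11546 tested genes 32.5% were called, 18.5% with the higher level in Ly6Chi and 14.1% in Ly6Clo. The median difference, always given as Ly6Clo minus Ly6Chi on the log2 scale, was -0.04 over the member genes and -0.01 over all tested genes. The mean was lower in Ly6Clo for 26 of the 41 genes. Each gene is represented by its tested probe set with the highest mean. Counted by probe set, 102 of the 118 were tested and 38 were called, 15 towards Ly6Clo and 23 towards Ly6Chi, against a background of 31.1% (15.2% and 15.9%).

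**Figure D1:**
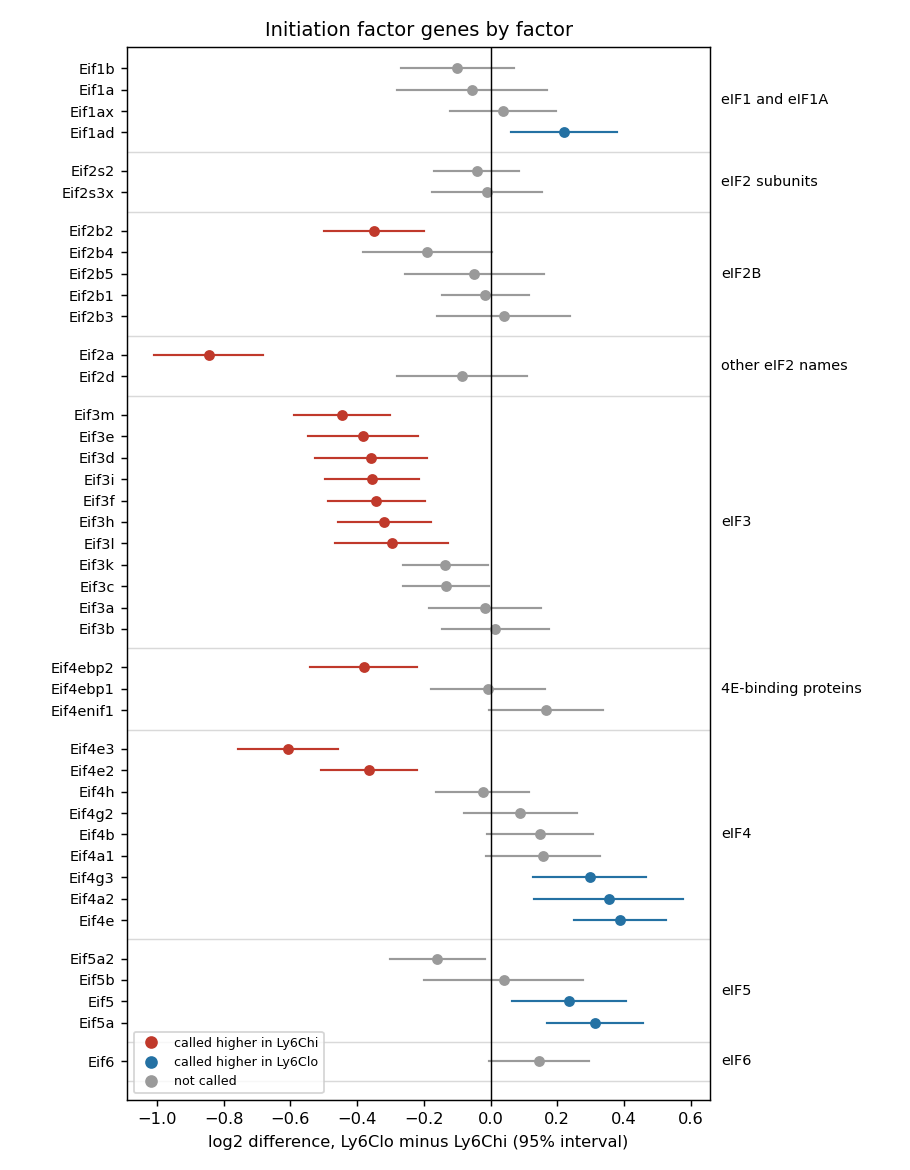
Log2 difference of each tested member gene, Ly6Clo minus Ly6Chi, with its 95% interval, grouped by factor; red and blue mark genes called higher in Ly6Chi and in Ly6Clo, grey those not called. The 7 called eIF3 genes lie left of 0, between -0.44 and -0.30. The 3 called eIF4 genes and 2 called eIF5 genes higher in Ly6Clo lie between 0.24 and 0.39. The 2 called eIF4 genes higher in Ly6Chi, Eif4e3 and Eif4e2, lie at -0.61 and -0.36.

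The cells carried the RNA of their labels. All 4 measured markers of Ly6Chi monocytes were called higher in Ly6Chi, and 5 of 6 markers of Ly6Clo monocytes higher in Ly6Clo, with Cx3cr1 not called. Markers of other cells moved with the subset in part: 2 of 7 neutrophil markers (Cd177 and Mpo), 2 of 4 B cell markers (Cd79a and Ms4a1) and 1 of 3 tested dendritic cell markers (Flt3) were higher in Ly6Chi, and 1 of 2 tested NK cell markers (Klrd1) higher in Ly6Clo. The summed intensity of the neutrophil list was 2915 to 3405 in Ly6Chi and 615 to 772 in Ly6Clo. Cd177 alone carried most of this gap, at a mean log2 intensity of 11.27 against 6.56, while the other 6 markers had means of 6.55 to 7.37 and 6.34 to 6.67. The NK cell list summed to 276 to 326 and 457 to 564, a gap that came from Klrd1 (means 6.43 and 8.10), with Gzmb not called and Ncr1 and Prf1 too dim to be tested. The B cell list summed to 643 to 1072 and 456 to 737, and the dendritic cell list to 690 to 771 and 565 to 658. In both subsets the sample numbered 1 was the highest for S100a9, Cd79a, Ms4a1, Pf4 and Alas2. No T cell, platelet or red cell marker was called, with 1 red cell marker tested. The platelet list summed to 1454 to 3664 in Ly6Chi and 1709 to 4741 in Ly6Clo. The red cell list summed to 780 to 2612 and 832 to 3958, and the T cell list to 696 to 772 and 707 to 840. Platelet and red cell sums thus varied widely between arrays within each subset. The log2 ratio of the 3-prime to the 5-prime actin control probe set, a sign of RNA length, was 0.32 to 0.44 in Ly6Chi and 0.26 to 0.34 in Ly6Clo. For Gapdh the Ly6Chi range of 0.03 to 0.36 enclosed the Ly6Clo range of 0.08 to 0.14. The part of these in the differences below was not tested. The 8 array medians lay between 80.5 and 83.0 on the intensity scale. The number of arrays limits the precision, and the standard error of a member gene's difference was 0.06 to 0.11.

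eIF3 is built of a core of PCI and MPN domain subunits (Eif3a, Eif3c, Eif3e, Eif3f, Eif3h, Eif3k, Eif3l and Eif3m) with further subunits attached, among them Eif3b, Eif3d and Eif3i. Promoter sequences are shown for the 4 called eIF3 genes found in the promoter table, beside 5 of the called genes of other factors, with long and short runs, because genes of the translation machinery often start transcription in a run of pyrimidines. The sequences are RefSeq's for GRCm38.p6, from 30 bases before to 15 bases after the annotated start, with the longest run of C and T in capitals.
Eif3f (chr7:108934385-108934429, plus strand): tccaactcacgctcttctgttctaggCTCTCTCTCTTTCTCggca
Eif3l (chr15:79075193-79075237, plus strand): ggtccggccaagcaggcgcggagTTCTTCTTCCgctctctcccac
Eif3m (chr2:105017013-105017057, minus strand): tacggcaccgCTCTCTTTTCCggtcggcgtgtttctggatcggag
Eif3d (chr15:77970810-77970854, minus strand): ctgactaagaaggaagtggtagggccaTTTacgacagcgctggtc
Eif1ad (chr19:5366783-5366827, plus strand): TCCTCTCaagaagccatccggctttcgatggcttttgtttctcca
Eif2a (chr3:58525791-58525835, plus strand): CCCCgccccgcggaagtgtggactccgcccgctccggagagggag
Eif2b2 (chr12:85219451-85219495, plus strand): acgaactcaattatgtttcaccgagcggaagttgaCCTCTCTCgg
Eif4a2 (chr16:23107438-23107482, plus strand): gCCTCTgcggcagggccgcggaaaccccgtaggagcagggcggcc
Eif5 (chr12:111538071-111538115, plus strand): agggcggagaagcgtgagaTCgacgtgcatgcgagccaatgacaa
The longest run had 15 bases in Eif3f, 11 in Eif3m, 10 in Eif3l and 3 in Eif3d. Called genes of other factors spanned a like range. The run had 13 bases at 1 of the 2 listed starts of Eif4e and 2 at the other, 8 in Eif2b2 and 7 in Eif1ad. It had 5 bases in Eif4a2, 4 in Eif2a and Eif4g3, 4 to 5 at the starts of Eif4e2, 2 to 5 at those of Eif5a, and 2 in Eif4ebp2 and Eif5. Counted from the annotated start, the runs of Eif3f and Eif3l began at -4 and -7 and crossed it. Those of Eif3m, Eif3d and Eif1ad began at -20, -3 and -30 and ended before it. The run of 13 in Eif4e, from -26, also ended before the start, and that of Eif2b2 began after it, at 5. The promoter table held 33 of the 42 member genes. A run of at least 8 was found at any position in this window for 8 of these 33 genes (24.2%), against 21.3% of all 27025 genes in the table, a share close to that of the members. A match describes letters only.

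Eif3m, a PCI subunit, had the largest difference of the complex. Its log2 intensity was 10.78, 10.59, 10.65 and 10.70 in the Ly6Chi arrays and 10.13, 10.27, 10.27 and 10.28 in the Ly6Clo arrays. All Ly6Chi values lay above all Ly6Clo values, a 1.36-fold difference (log2 difference -0.44, SE 0.07, limma adjusted p = 3.0e-04). Like that of Eif5a, its probe set carries a mark of possible matches to other transcripts. Eif3e, the subunit that holds Eif3d on the core, stood at 12.16, 12.02, 12.05 and 12.28 in Ly6Chi and at 11.63, 11.74, 11.83 and 11.79 in Ly6Clo. Again the groups did not overlap, and the 1.30-fold difference was called (log2 difference -0.38, SE 0.08, limma adjusted p = 0.0022). All 3 tested probe sets of Eif3e were called, with differences of -0.43 to -0.34. Those beside the representative carry the same mark of possible matches.

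The other called eIF3 genes were close to these. Eif3d, a subunit with cap-binding activity of its own, was 1.28-fold higher in Ly6Chi and Eif3i, a WD-repeat subunit, 1.28-fold. The MPN subunits Eif3f and Eif3h were 1.27-fold and 1.25-fold higher, and the PCI subunit Eif3l 1.23-fold. None of these 5 overlapped between subsets. For Eif3d the call rested on 1 of 2 tested probe sets, and the mean of both was not called (log2 difference -0.18, limma adjusted p = 0.078). The call of Eif3l was lost without both samples numbered 1 (limma adjusted p = 0.065).

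The other 4 of the 11 eIF3 genes were not called. The scaffold Eif3a differed by -0.02 (95% interval -0.19 to 0.15) and the RNA-binding subunit Eif3b by 0.01 (-0.15 to 0.17). Eif3c, which contacts eIF1 and eIF5, differed by -0.13 (-0.26 to -0.01) and Eif3k by -0.14 (-0.26 to -0.01). Both of the latter were also without overlap between the subsets, so 9 of 11 eIF3 genes did not overlap, all with the higher values in Ly6Chi. Of all tested genes 33.9% did not overlap, 19.2% with the higher values in Ly6Chi. Of the 21 tested eIF3 probe sets 13 did not overlap, against 31.8% of all tested probe sets (16.4% with the higher values in Ly6Chi). Of the 4 tested probe sets of Eif3c, 1 was called, at -0.21, and it carries a mark of possible matches to other transcripts. The median difference over the 11 genes was -0.32, and 11 of these 21 eIF3 probe sets were called, all higher in Ly6Chi. The mean of the 11 genes, each centred on its own mean, was 0.05 to 0.19 in the Ly6Chi arrays and -0.18 to -0.09 in the Ly6Clo arrays.

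**Figure D2:**
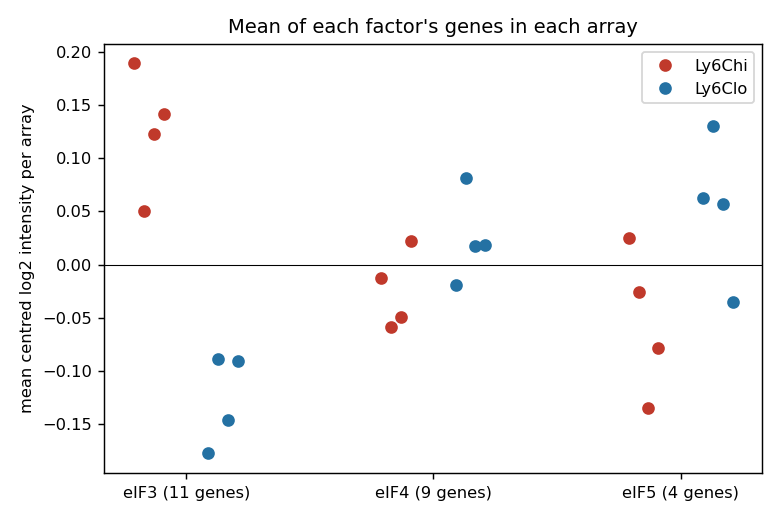
Mean of the centred log2 intensities of the tested genes of eIF3, eIF4 and eIF5 in each array, 1 point per array, red for Ly6Chi and blue for Ly6Clo. The eIF3 points of the subsets are apart (0.05 to 0.19 against -0.18 to -0.09), while those of eIF4 (-0.06 to 0.02 against -0.02 to 0.08) and eIF5 (-0.14 to 0.03 against -0.04 to 0.13) overlap.

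The 2 eIF2 subunit genes among the members did not pass the test, and the alpha subunit, which carries the regulatory phosphorylation, was not analysed here. Eif2s2, the beta subunit, was measured at 10.87, 10.78, 10.77 and 10.82 in Ly6Chi and at 10.71, 10.79, 10.82 and 10.76 in Ly6Clo, and the subsets overlapped. The difference was -0.04 (95% interval -0.17 to 0.09), and none of its 5 tested probe sets was called. Eif2s3x, the X-linked gamma subunit that holds the initiator tRNA, differed by -0.01 (-0.17 to 0.15). None of the 8 tested probe sets of these subunits was called.

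Of the 5 genes of eIF2B, the exchange factor that returns eIF2 to its GTP form, 1 was called. Eif2b2, the beta subunit, was measured at 10.36, 10.16, 10.25 and 10.19 in Ly6Chi and at 9.89, 9.89, 9.79 and 9.99 in Ly6Clo. The groups did not overlap, and Ly6Chi was 1.27-fold higher (log2 difference -0.35, SE 0.07, limma adjusted p = 0.0021). Of its 3 tested probe sets 2 were called, at -0.35 and -0.30, and the other differed by -0.10. The representative carries a mark of possible matches to other transcripts. Eif2b4 differed by -0.19, and the catalytic subunit Eif2b5, Eif2b1 and Eif2b3 by -0.05, -0.02 and 0.04. These 4 overlapped between the subsets and were not called.

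Eif2a and Eif2d encode single-chain proteins that can bring initiator tRNA to the ribosome without the eIF2 trimer. Eif2a had the largest difference of all tested members. Its values were 9.73, 9.42, 9.50 and 9.64 in Ly6Chi and 8.69, 8.76, 8.71 and 8.75 in Ly6Clo. The Ly6Clo arrays lay close together and well below the lowest Ly6Chi array. The representative probe set was 1.80-fold higher in Ly6Chi (log2 difference -0.84, SE 0.07, limma adjusted p = 5.2e-06), and the other tested probe set 2.05-fold (log2 difference -1.04, SE 0.13, limma adjusted p = 1.1e-04). The latter carries a mark of possible matches to other transcripts.

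Eif2d was not called by its representative probe set (difference -0.09, 95% interval -0.28 to 0.11). Of its 5 tested probe sets 3 were called, all higher in Ly6Chi, at -0.58, -0.51 and -0.31. The last of these carries a mark of possible matches to other transcripts. The mean of the 5 was called as well (log2 difference -0.32, limma adjusted p = 0.0054). All 7 tested probe sets of Eif2a and Eif2d had the higher mean in Ly6Chi, and 5 were called.

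**Figure D3:**
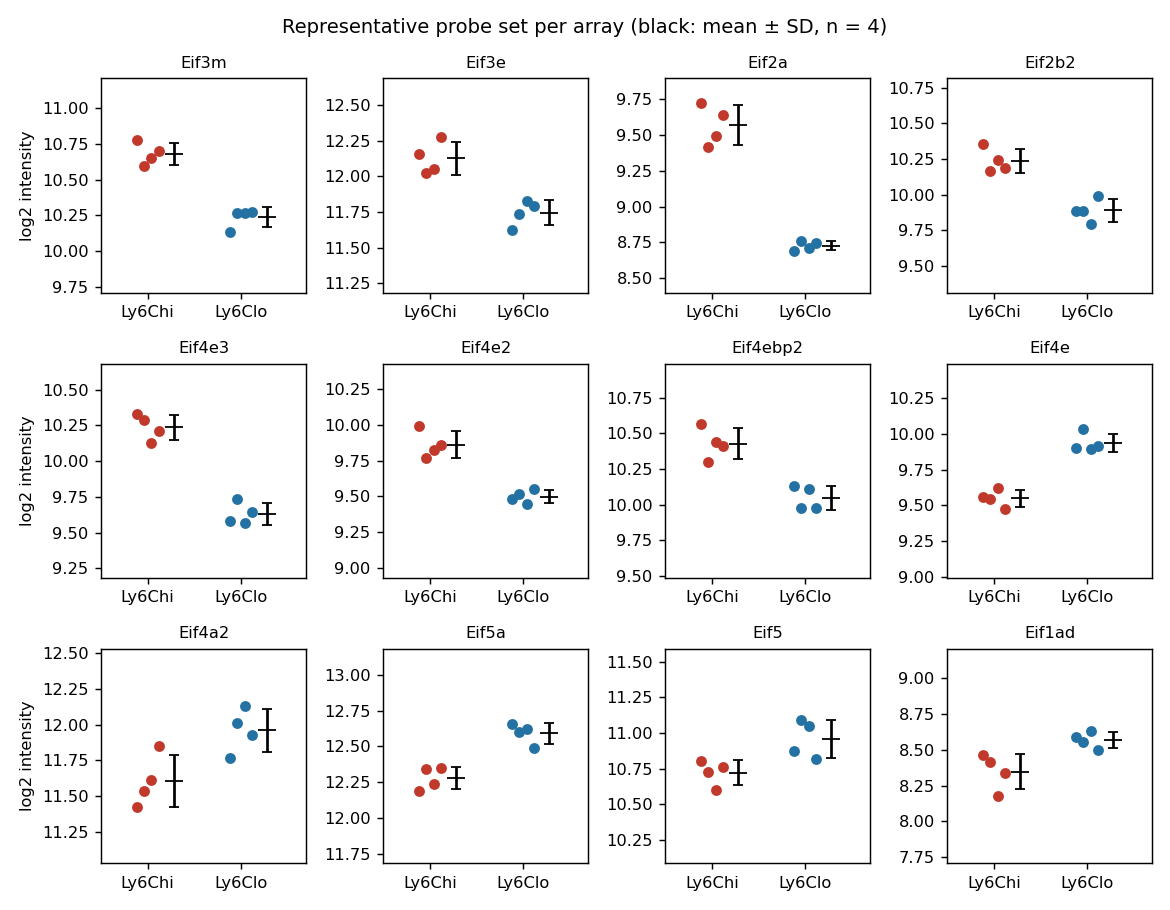
Log2 intensity of 12 called member genes in each array, red for Ly6Chi and blue for Ly6Clo, with the mean ± SD of 4 arrays in black; each vertical axis spans 1.5 log2 units around the gene's own mean. Eif4a2 is the 1 gene shown whose subsets overlap, and Eif2a has the widest gap, from 8.76 to 9.42.

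The cap-binding family was divided between the subsets. Eif4e, the cap-binding subunit of the eIF4F complex, was measured at 9.56, 9.54, 9.62 and 9.47 in Ly6Chi and at 9.90, 10.03, 9.90 and 9.91 in Ly6Clo. The groups did not overlap, and Ly6Clo was 1.31-fold higher (log2 difference 0.39, SE 0.06, limma adjusted p = 5.4e-04). Its second tested probe set differed by 0.19 and was not called.

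Eif4e3, a family member that binds the cap in an unusual way, differed in the opposite direction, with 10.33, 10.28, 10.12 and 10.21 in Ly6Chi and 9.58, 9.74, 9.56 and 9.64 in Ly6Clo. It was 1.52-fold higher in Ly6Chi with no overlap (log2 difference -0.61, SE 0.07, limma adjusted p = 3.7e-05), and its other probe set was called at -0.68. Eif4e2, also known as 4EHP, binds the cap without eIF4G and represses translation. It stood at 9.99, 9.77, 9.83 and 9.86 in Ly6Chi and at 9.48, 9.52, 9.44 and 9.55 in Ly6Clo, again with no overlap (1.29-fold, log2 difference -0.36, SE 0.07, limma adjusted p = 0.0012). Its probe sets disagreed: 2 of 5 were called higher in Ly6Chi, at -0.48 and -0.36, and the other 3 differed by 0.08, 0.10 and 0.14 and were not called. The mean of the 5 was not called (log2 difference -0.10, limma adjusted p = 0.15).

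Eif4a2, an RNA helicase of the family that unwinds messenger RNA leaders, was measured at 11.42, 11.54, 11.61 and 11.85 in Ly6Chi and at 11.76, 12.01, 12.13 and 11.93 in Ly6Clo. The highest Ly6Chi array lay above the lowest Ly6Clo array. Ly6Clo was 1.28-fold higher (log2 difference 0.35, SE 0.10, limma adjusted p = 0.019), a call that was lost without Ly6Chi replicate 1 or 2 or Ly6Clo replicate 2 or 3 (limma adjusted p = 0.052 to 0.056). Its close relative Eif4a1 differed by 0.16 (95% interval -0.01 to 0.33) and was not called by any of 3 probe sets.

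Eif4g3, a scaffold that joins the cap-binding protein to the helicase and to eIF3, was 1.23-fold higher in Ly6Clo (log2 difference 0.30, SE 0.08, limma adjusted p = 0.011), with 2 of 4 probe sets called. Eif4b, a cofactor of the helicase, was not called by its representative probe set (0.15, 95% interval -0.01 to 0.31), but its other 2 probe sets were called higher in Ly6Clo, at 0.26 and 0.27, and so was the mean of the 3 (log2 difference 0.23, limma adjusted p = 0.017). Eif4g2, a scaffold relative that lacks the site for the cap-binding protein, differed by 0.09 and was not called, while 1 of its 4 probe sets was, at 0.24. Eif4h, another helicase cofactor, differed by -0.02, and none of its 5 probe sets was called. The single-symbol probe set of Eif4a3, an exon junction helicase, did not pass the filter on dim signal. A tested probe set shared by Eif4a3 and Gm5576 had means of 10.62 in Ly6Chi and 10.79 in Ly6Clo and was not called (log2 difference 0.17, limma adjusted p = 0.076). Over the 9 tested eIF4 genes, 3 were called with the higher level in Ly6Clo and 2 in Ly6Chi, with a median difference of 0.15.

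The 4E-binding proteins, which compete with eIF4G for Eif4e, did not move together. Eif4ebp2 was measured at 10.56, 10.30, 10.44 and 10.41 in Ly6Chi and at 10.13, 9.97, 10.11 and 9.98 in Ly6Clo. It was 1.30-fold higher in Ly6Chi with no overlap (log2 difference -0.38, SE 0.07, limma adjusted p = 0.0018). Only this 1 of its 4 tested probe sets was called, and the mean of the 4 was not (log2 difference -0.16, limma adjusted p = 0.10). Eif4ebp1, the best studied target of mTOR among them, differed by -0.01 (95% interval -0.18 to 0.16), with none of 3 probe sets called. Eif4enif1, which carries Eif4e to the nucleus and to processing bodies, differed by 0.17 (-0.004 to 0.34).

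Eif5a, a factor that carries the modified amino acid hypusine and helps the ribosome through difficult stretches, was measured at 12.19, 12.34, 12.24 and 12.35 in Ly6Chi and at 12.65, 12.60, 12.62 and 12.49 in Ly6Clo. The groups did not overlap, and Ly6Clo was 1.24-fold higher (log2 difference 0.31, SE 0.07, limma adjusted p = 0.0033). Both of its probe sets were called, and both carry a mark of possible matches to other transcripts. Its rarer copy Eif5a2 differed by -0.16 and was not called, although its groups did not overlap.

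Eif5, which triggers GTP hydrolysis by eIF2 at the start codon, was measured at 10.80, 10.73, 10.60 and 10.76 in Ly6Chi and at 10.88, 11.09, 11.05 and 10.82 in Ly6Clo. It was 1.18-fold higher in Ly6Clo with no overlap (log2 difference 0.24, SE 0.08, limma adjusted p = 0.039). This call was near the threshold and was lost under 10 of 20 other settings, 5 of them the omission of 1 array: Ly6Chi replicate 2, 3 or 4, or Ly6Clo replicate 2 or 3 (limma adjusted p = 0.057 to 0.11 without one of these arrays). Of its 5 probe sets 4 were called, and the 3 beside the representative had larger differences, of 0.33, 0.34 and 0.40. Eif5b, the GTPase of subunit joining, differed by 0.04 with no probe set called.

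Eif6, which keeps free large subunits from joining small ones, was measured at 10.00, 10.04, 9.90 and 9.85 in Ly6Chi and at 10.06, 10.21, 10.04 and 10.07 in Ly6Clo. The groups overlapped by a small margin, and the difference of 0.15 (95% interval -0.004 to 0.30) was not called.

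The scanning factors of the eIF1 and eIF1A families were mostly uncalled. Eif1a, its X-linked relative Eif1ax and Eif1b differed by -0.05, 0.04 and -0.10. Eif1ad, a protein with an eIF1A-like domain, stood at 8.46, 8.41, 8.18 and 8.34 in Ly6Chi and at 8.59, 8.56, 8.63 and 8.50 in Ly6Clo. It was 1.16-fold higher in Ly6Clo with no overlap (log2 difference 0.22, SE 0.07, limma adjusted p = 0.038). The call was lost under 10 of 20 other settings, among them without Ly6Chi replicate 3 or 4 or without Ly6Clo replicate 1, 2 or 3 (limma adjusted p = 0.066 to 0.10). Its second probe set was called at 0.48.

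**Figure D4:**
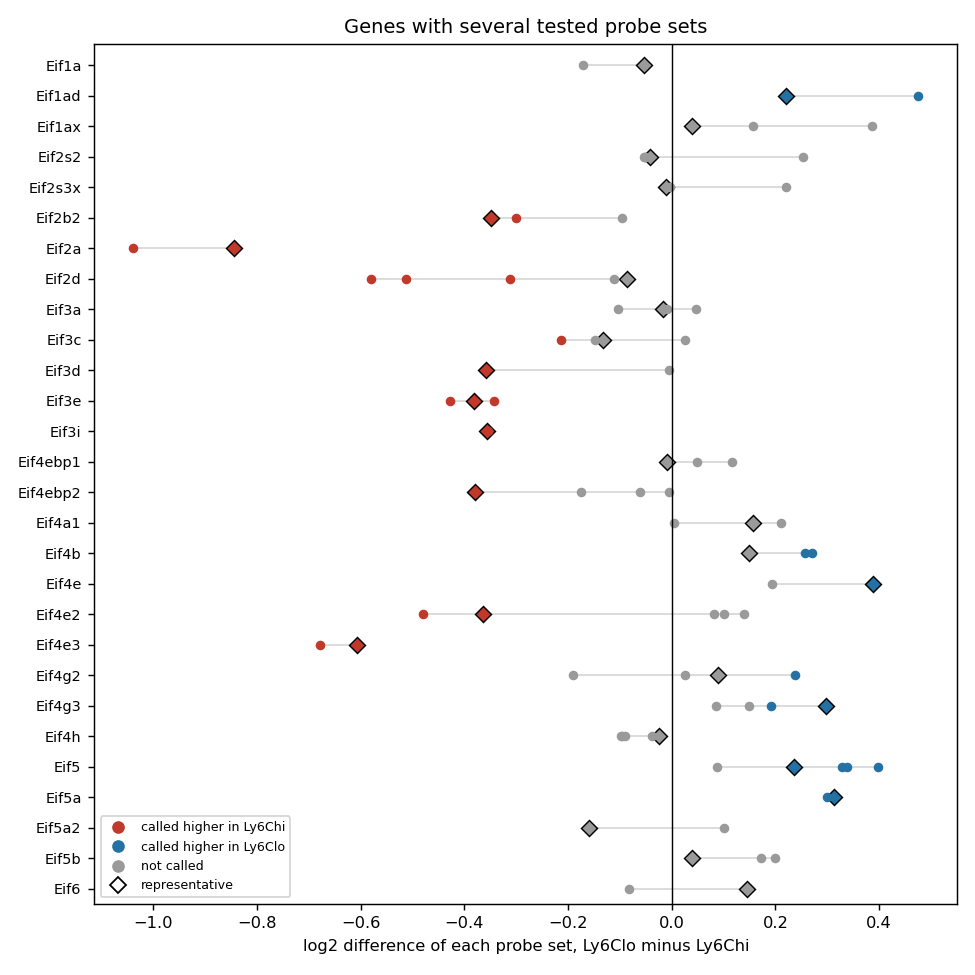
Log2 difference of each tested probe set of the 28 member genes with more than 1, Ly6Clo minus Ly6Chi; a diamond marks the representative, and colours mark calls as red for higher in Ly6Chi, blue for higher in Ly6Clo and grey for none. No gene has probe sets called in both directions, and Eif4e2 has the widest spread, from -0.48 to 0.14.

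Several probe sets measured most members. Among the 28 genes read by more than 1 tested probe set, all were called in 6, some in 11 and none in 11. Called probe sets of 1 gene never pointed in opposite directions. In 9 genes the probe sets had differences of both signs. The 4 genes with a call outside the representative were Eif2d, Eif3c, Eif4b and Eif4g2. Within a subset the SD of a representative probe set was 0.02 to 0.21, with a median of 0.09.

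The canonical E-box, CACGTG, is bound by Myc, a known activator of Eif4e and other translation genes. It reads the same on both strands and holds purines, so it cannot lie inside a pyrimidine run. It was found within 250 bases before to 50 after a start in 9 of 33 member genes (27.3%), against 8.09% of all genes in the table. The member windows were also richer in G and C, with a median of 62.7% against 52.7%. The window of Eif3f, the called gene with an E-box and a single listed start, is shown with the motif in capitals.
Eif3f (chr7:108934325-108934374, plus strand): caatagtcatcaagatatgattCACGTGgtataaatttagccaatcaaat
Counted from the start, the motif began at position -68 in Eif3f and at -228 from 1 of the listed starts of Eif4e. Eif3f was higher in Ly6Chi and Eif4e and Eif5a, which also held it, higher in Ly6Clo, and uncalled genes such as Eif4a1 and Eif4h held it too.

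The surrounding pathway was read from a list of 52 other translation genes, of which 46 were tested. Ly6Clo had the higher level for 10 and Ly6Chi for 9 of them among called genes (backgrounds 14.1% and 18.5%), and the median difference was 0.05. Among the kinases of eIF2, Eif2ak2 (PKR, the sensor of double-stranded RNA and an interferon-stimulated gene) was 1.46-fold higher in Ly6Chi (log2 difference -0.55, SE 0.11, limma adjusted p = 0.00285). Eif2ak3 (PERK, the sensor of endoplasmic reticulum stress) was 1.33-fold higher in Ly6Chi, with 1 of 2 tested probe sets called. Eif2ak4 (GCN2, the sensor of uncharged tRNA) was 1.23-fold higher in Ly6Clo. Eif2ak1 was not called by its representative probe set (-0.15), while 1 of its 4 tested probe sets was called.

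Ddit3 (CHOP), a transcription factor of the integrated stress response, was measured at 7.81, 7.68, 7.83 and 7.75 in Ly6Chi and at 8.39, 8.50, 8.41 and 8.47 in Ly6Clo. The groups did not overlap, and the difference was 1.60-fold (log2 difference 0.68, SE 0.06, limma adjusted p = 6.5e-06). Ppp1r15a (GADD34), the phosphatase subunit that reverses phosphorylation of eIF2, was 1.38-fold higher and Atf4, the response's main transcription factor, 1.21-fold higher in Ly6Clo, with the subsets overlapping for Ppp1r15a.

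The 2 kinases of Eif4e were opposed: Mknk1 was 1.29-fold higher in Ly6Chi and Mknk2 1.27-fold higher in Ly6Clo. Of the tested probe sets, 1 of 3 was called for Mknk1 and 2 of 2 for Mknk2. Mtor differed by 0.08 and was not called, while its activator Rheb was 1.25-fold higher in Ly6Clo. Of the other listed regulators, Rps6 was 1.26-fold and Larp1 1.22-fold higher in Ly6Chi, both called and with overlapping subsets. The helicase Ddx3x was 1.34-fold and the inhibitor of poly(A)-binding protein Paip2b 1.30-fold higher in Ly6Clo. For Paip2b 1 of 2 tested probe sets was called. Among termination factors Gspt2 was 1.65-fold higher in Ly6Chi and its relative Gspt1 1.23-fold higher in Ly6Clo, the latter with overlapping subsets and 1 of 4 probe sets called. Of the genes listed under elongation, Eef2 was 1.25-fold higher in Ly6Chi and Eef1e1 1.28-fold higher in Ly6Clo. Neither of the enzymes that make hypusine, Dhps and Dohh, was called.

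**Figure D5:**
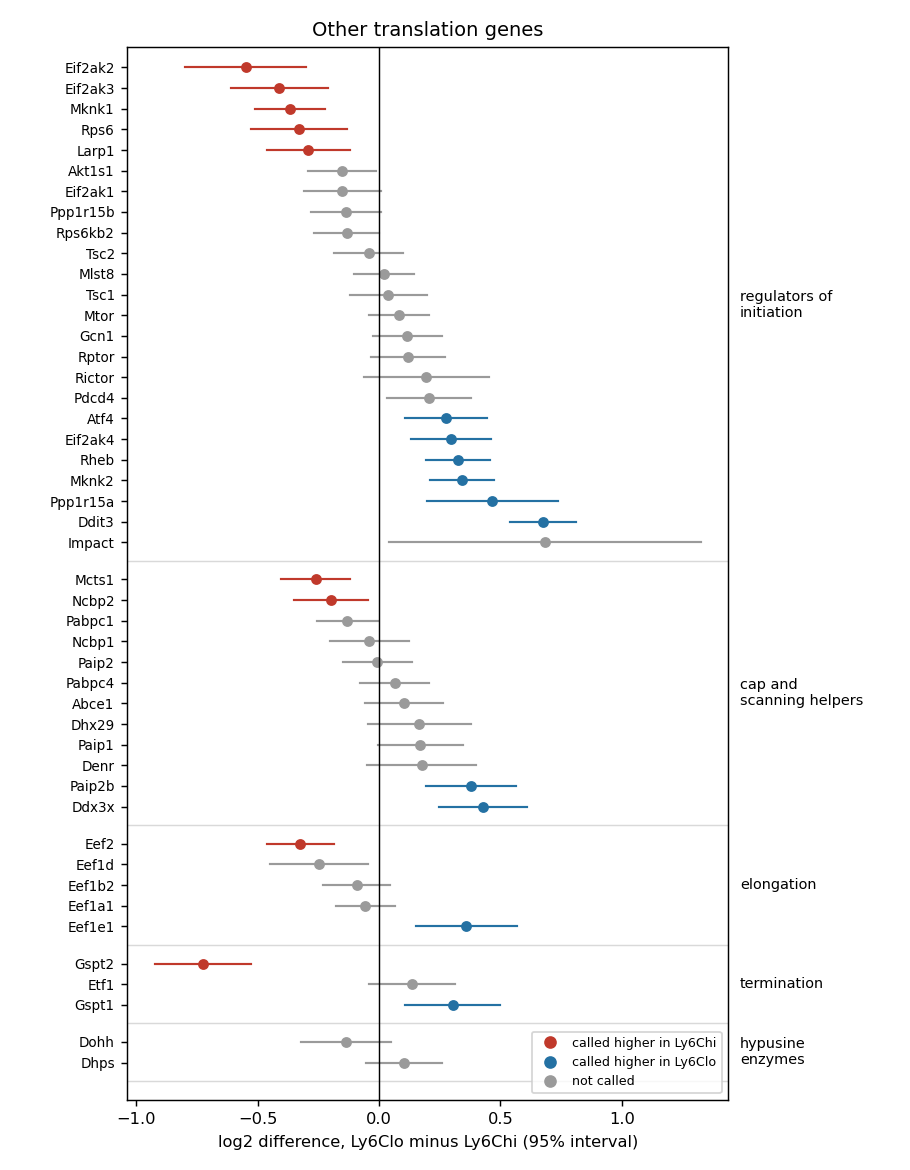
Log2 difference with 95% interval for the 46 tested genes of the wider translation list, Ly6Clo minus Ly6Chi, by role, with calls in red (higher in Ly6Chi) and blue (higher in Ly6Clo). Calls fall on both sides of 0, from Gspt2 at -0.73 to Ddit3 at 0.68.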

How the data were processed

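For the 8 mouse arrays the authors deposited probe set intensity values on a linear scale, from 8.64 to 27145. GCRMA and MAS5 are named in the submitters' processing notes without version, role or order, so how the intensity values were normalized is not given in the sources used here. Per the labels' protocols, the amplification step ran for 64 h in place of 4 h, which can alter ratios. Values were log2-transformed, no pseudocount being added. The 64 control probe sets were left out, and a probe set was tested if it exceeded the table's median (intensity 81.9) in at least 4 of 8 arrays, which left 22831. The subsets were compared in limma 3.58.1 (lmFit, eBayes, R 4.3.3) without a block. P-values are two-sided and were adjusted by Benjamini and Hochberg's method across these 22831 probe sets. Intervals are at 95% and unadjusted. Gene names are those of the platform annotation, and all 42 member genes matched a mouse RefSeq table by Entrez identifier. In simulated data with 22831 probe sets, a small part was changed. The fit called 8% of the probe sets changed by 0.25 (log2), 60% by 0.5 and 100% by 1, with 5 false calls among 139. In the measured data 31.1% were called, which makes the adjusted threshold easier to pass, so these shares do not give the power here. Every called member is named. Array values are given, per factor and direction, for the 2 called genes of largest fold, or for the member of highest mean where none was called. Of the wider list, the 4 called genes per direction of largest fold are named. Eif2ak1, Eif2ak4, Atf4, Mknk2, Mtor, Rheb, Rps6, Larp1, Mcts1, Ncbp2, Gspt1, Eef2, Eef1e1, Dhps and Dohh were added after their values were seen. The alternatives were a replicate block, each array left out, other filters, scalings, array weights, thresholds and probe set rules. The members and lists were chosen with earlier results of these data known. Human arrays were not analysed here.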

Additional observations from a re-analysis of the deposited data

Results flagged for a closer look

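In 6 of 120 sets of 4 values (60 genes in 2 subsets), 1 array stood apart from the other 3 by a gap of most of the group's range. Chance alone gives this in about 1 set of 20. Eif1a stood at 8.80 in Ly6Chi replicate 2, against 8.51 to 8.53 in the other Ly6Chi arrays. Eif1ax stood at 9.34 in Ly6Clo replicate 2, against 9.15 to 9.18. Eif4e stood at 10.03 in Ly6Clo replicate 2, against 9.90 to 9.91, and its call was kept without that array. Ly6Clo replicate 1 was the low array for Eif3h (11.73, against 11.80 to 11.81) and for Eif3m (10.13, against 10.27 to 10.28). Both kept their call without that array. Ppp1r15a stood at 7.95 in Ly6Chi replicate 1, against 7.53 to 7.60 in the others.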

How the results depend on the processing

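Of the 18 called member genes, 10 kept their direction and call under every alternative that gave them a value (20, or 19 for Eif3m and Eif5a, whose tested probe sets are all marked for cross-matching), 8 lost the call under at least 1, and 0 reversed. Most sensitive were Eif1ad and Eif5 (10 settings each). The count of eIF5 genes higher in Ly6Clo fell from 2 to 1 with a replicate block, without the filter on dim signal, with median centring, with array weights, without probe sets marked for cross-matching and at an adjusted p under 0.01. At that threshold 7 member probe sets, 2 member genes and 1 eIF4 gene were higher in Ly6Clo, and 11 other translation genes were called (5 higher in Ly6Clo). With the mean of a gene's probe sets 1 eIF4 gene was higher in Ly6Chi. The omission of single arrays gave 3 to 6 member genes and 1 to 2 eIF5 genes higher in Ly6Clo. Uncalled differences near 0 changed sign: Eif3a with array weights (0.0022) and, in an alternative chosen after seeing the data, without both samples numbered 1 (0.0675), which also turned Eif2s3x (0.0351), Eif2b1 (0.0012), Eif4ebp1 (0.0239) and Eif4g2 (-0.0061). The mean of probe sets turned Eif2s2 (0.0114), Eif2s3x (0.0687) and Eif4ebp1 (0.0520), as did dropping marked probe sets for Eif4ebp1 (0.0486). Leaving out 1 array at a time gave differences of both signs for these uncalled genes: -0.1364 to 0.0187 for Eif1a, -0.0050 to 0.0831 for Eif1ax, -0.0707 to 0.0345 for Eif2s3x, -0.0347 to 0.0149 for Eif2b1, -0.0276 to 0.1122 for Eif2b3, -0.1163 to 0.0086 for Eif2b5, -0.0622 to 0.0444 for Eif3a, -0.0280 to 0.0607 for Eif3b, -0.0780 to 0.0316 for Eif4ebp1, -0.0449 to 0.0026 for Eif4h and -0.0330 to 0.1292 for Eif5b. The cause of these changes was not tested. Same-numbered samples deviated together at r = 0.27, 0.34, -0.03 and -0.10, and differently numbered samples at -0.41 to 0.55. These values do not settle whether the numbers pair the samples, and the main fit took them as unpaired. With the replicate block 16 member genes were called. The number of arrays and the closeness of dim probe sets to background limit what could be detected.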

Other observations

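Probe sets annotated to several genes lay outside the count. Of 3 probe sets annotated jointly to the Eif3j family, the loosely attached eIF3 subunit, all had a higher mean in Ly6Clo, at 0.22, 0.20 and 0.15. The first was called (limma adjusted p = 0.049), with overlap between the subsets. They were singled out after their values were seen. A probe set annotated jointly to Ankhd1 and the third 4E-binding protein was higher in Ly6Clo at 0.23 with no overlap (limma adjusted p = 0.027).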
